A study of Mus musculus with 10 samples.

Results

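The 39 genes described here are interferon response genes, that is, mouse genes that interferons induce or that carry the interferon signal, and they were taken by gene symbol. Of these, 37 have a row in each of the 2 deposited tables, which hold 17816 genes from Sertoli cells at 7 days after birth and 20007 genes from adult testis. Mx1 and Mx2, which encode antiviral dynamin-like GTPases, are not analysed here. The study deleted Rnf20, the E3 ligase that attaches ubiquitin to histone H2B, in Sertoli cells, which nourish developing germ cells from within the tubule wall. Poly(A) RNA of 10 untreated samples was sequenced. At 7 days there were 2 Rnf20 Flox/Flox samples, labelled WT and called controls here, and 2 Amh-Rnf20-/- samples, called knockouts here. Both groups carry the floxed Rnf20 allele. In the knockout, Cre is driven by the Amh promoter, which is active in Sertoli cells, and the cells were primary cultures from enzyme-digested tubules. The study's methods give 3 individuals per group, and 2 samples per group were analysed. Adult testis came as 3 samples labelled WT, called adult controls here, and 3 labelled RNF20 conditional knockout, called labelled knockouts here. The adult age in days, and whether any of these controls carry floxed alleles, are not given in the sources used here. A protocol label shared by all 10 samples names adult tissue, while the titles of the 4 Sertoli cell samples give day 7, which is followed here. No label says whether samples of a group came from separate animals, so the p-values below measure the spread between these samples, which may be technical.

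Interferons are cytokines released when a cell senses viral or displaced nucleic acid. Type I interferons signal through Ifnar1 and Ifnar2, Jak1 and Tyk2 to a complex that includes Stat2 and Irf9 and binds interferon-stimulated response elements (ISREs), whereas interferon gamma signals through Ifngr1 and Ifngr2 to genes with gamma-activated sites (GAS). The induced genes include sensors, transcription factors that extend the response, and effectors that act on viral RNA, protein modification and membranes, and in the testis they are known from virus infection of Sertoli cells, Leydig cells and resident macrophages.

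Promoter windows of RefSeq genes on GRCm38.p6, running from 250 bases before to 50 bases after the start, were found for 30 of the 39 genes, 4 of which have 2 windows. An ISRE-like match, GAAA, any 2 bases and GAAA on either strand, was present in 17 of the 30 (56.7%), compared with 3.99% of all 27025 genes with a window and 3.44% of all windows. A GAS-like match, TTC, any 3 bases and GAA, which reads the same on both strands, was present in 7 of the 30 (23.3%), compared with 9.55% of all genes and 8.3% of all windows. The matches are letters in a window and were not tested as binding sites. The 200 bases before the start are printed for 7 genes that the values below turn on, 5′ to 3′ on the gene's strand, with ISRE-like and GAS-like matches in capitals.
Isg15 (chr4:156200819-156201018, minus strand): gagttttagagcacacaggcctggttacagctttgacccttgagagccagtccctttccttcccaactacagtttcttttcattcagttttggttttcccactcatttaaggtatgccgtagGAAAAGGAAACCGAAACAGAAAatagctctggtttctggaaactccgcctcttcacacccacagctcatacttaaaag
Ifit1 (chr19:34640689-34640888, plus strand): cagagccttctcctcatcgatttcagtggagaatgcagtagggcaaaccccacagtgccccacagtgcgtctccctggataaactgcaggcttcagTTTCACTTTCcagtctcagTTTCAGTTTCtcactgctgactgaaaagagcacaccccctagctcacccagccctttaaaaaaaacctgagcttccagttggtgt
Ifit3 (chr19:34583329-34583528, plus strand): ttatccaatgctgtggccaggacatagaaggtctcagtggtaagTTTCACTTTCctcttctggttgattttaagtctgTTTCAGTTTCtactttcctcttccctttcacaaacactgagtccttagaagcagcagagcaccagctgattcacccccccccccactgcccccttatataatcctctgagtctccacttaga
Ifit3b (chr19:34607757-34607956, plus strand): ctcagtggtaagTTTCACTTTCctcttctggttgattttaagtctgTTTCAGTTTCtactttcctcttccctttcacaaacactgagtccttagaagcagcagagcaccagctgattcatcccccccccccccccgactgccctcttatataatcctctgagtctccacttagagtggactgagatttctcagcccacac
Gbp2 (chr3:142620463-142620662, plus strand): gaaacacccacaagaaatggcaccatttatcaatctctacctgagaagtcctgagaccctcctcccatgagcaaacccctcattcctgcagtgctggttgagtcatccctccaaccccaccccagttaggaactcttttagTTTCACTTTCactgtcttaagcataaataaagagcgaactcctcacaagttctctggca
Gbp7 (chr3:142530136-142530335, plus strand): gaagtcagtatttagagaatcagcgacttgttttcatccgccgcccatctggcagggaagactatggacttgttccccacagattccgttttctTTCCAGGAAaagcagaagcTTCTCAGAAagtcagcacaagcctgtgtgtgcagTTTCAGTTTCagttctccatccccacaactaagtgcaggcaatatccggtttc
Irf1 (chr11:53769814-53770013, plus strand): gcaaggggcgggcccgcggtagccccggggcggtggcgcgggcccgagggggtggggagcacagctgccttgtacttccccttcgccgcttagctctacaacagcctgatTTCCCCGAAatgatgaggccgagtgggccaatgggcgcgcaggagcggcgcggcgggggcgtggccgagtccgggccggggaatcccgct

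The printed promoters differ in which letters they hold. Isg15 has 3 overlapping ISRE-like matches, which begin 78, 72 and 66 bases before its start. Ifit1 has 2 ISRE-like matches, at 104 and 85 bases before the start, and Ifit3 has 2, at 156 and 122. Ifit3b holds the same pair of matches 188 and 154 bases before its start. Its window is 75.0% identical to that of Ifit3 over 268 bases at the best offset, with no gaps allowed. The Ifit3 and Ifit3b windows both lie past the first base that RefSeq gives for the gene. Gbp2 has a lone ISRE-like match 59 bases before the start. Gbp7 has an ISRE-like match at 53 bases and GAS-like matches at 106 and 87 bases, and Irf1 holds a GAS-like match at 90 bases and no ISRE-like match in this window.

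Many of the genes are neighbours in the genome (RefSeq, GRCm38.p6). Ifit2, Ifit3, Ifit3b and Ifit1 lie within 99 kb (chr19:34550550-34650009), and Gbp7, Gbp3 and Gbp2 within 108 kb (chr3:142530336-142638008). Oas2, Oas3, Oas1g and Oas1a span 177 kb (chr5:120730333-120907544), and Ifitm2, Ifitm1, Ifitm3 and Irf7 span 312 kb (chr7:140954837-141266499). Some copies are close enough for reads to be shared. Of the 50-base words in GENCODE transcripts, 51.2% of those of Ifit3 also occur in another gene (mainly Ifit3b), as do 56.9% of those of Oas1a (mainly Oas1g) and 48.5% of those of Ifitm2 (mainly Gm45717), so the values of these genes are uncertain to that extent. Irf9 (Rnf31), Gbp7 (Gm43802), Ifitm2 (Gm45717), Rtp4 (Gm45338) and Parp14 (Gm49730) overlap exons of another gene on their own strand, while Irf1, Irf5, Dhx58, Usp18, Oasl1, Gbp2 and Ifi35 overlap exons of other genes on the opposite strand, and how strand was handled is not given in the sources used here.

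Depth ranged from 17477268 to 17705347 counts per sample at day 7 and from 15431912 to 16574144 in adult testis. Rnf20 was at 16.64 and 16.01 FPKM (fragments scaled by transcript length and library size) in the day 7 controls, and both knockouts were lower, at 10.25 and 12.58 FPKM (log2 fold change -0.49 ± 0.12 SE, adjusted p = 0.222, edgeR). In adult controls Rnf20 was at 4.89, 3.32 and 4.09 FPKM. In labelled knockouts it was at 9.16, 5.76 and 9.85 FPKM, so it was not lower in the samples labelled knockout (log2 fold change 0.12 ± 0.27, adjusted p = 0.688, and 0.97 with an adjusted p of 0.0168 when scaled to total counts). The gene-level value covers the whole gene and, in adult testis, all cell types, of which Cre from the Amh promoter targets Sertoli cells alone. By Western blot the paper reports less RNF20 protein and less ubiquitinated H2B in adult Amh-Rnf20-/- testes than in Rnf20 Flox/Flox testes. That is a measure of protein, and whether the same animals were sequenced is not given in the sources used here. The day 7 cells express the Sertoli cell marker list (summed 1810 and 1650 FPKM in controls, 911 and 1330 FPKM in knockouts), together with markers of peritubular myoid cells (2010, 1910, 3520 and 3570 FPKM) and fibroblasts (1830, 1900, 3190 and 2730 FPKM). In adult testis, markers of spermatids summed to between 123000 and 192000 FPKM in the controls and between 3.38 and 86.0 FPKM in the labelled knockouts. From RNA values of such bulk samples alone, fewer cells of a type and less RNA per cell cannot be told apart. The paper's histology found neither round nor elongated spermatids in Amh-Rnf20-/- tubules, and its cell counts found fewer spermatocytes and spermatogonia in adults.

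The interferon response genes span a wide range of levels in Sertoli cells at day 7. Ifitm3, Ifitm2, Bst2 and Ifi27 were the 4 highest in every day 7 sample, between 114.18 FPKM (Ifi27 in knockout 1) and 1121.41 FPKM (Ifitm3 in knockout 1). The 37 genes together summed to 1520 and 1770 FPKM in the controls and to 2350 and 1720 FPKM in the knockouts. Without those 4 genes the sums were 183, 216, 263 and 185 FPKM, so most of the summed level came from the 4. The number of genes at 1 FPKM or more was 25 in control 1, 29 in control 2, 34 in knockout 1 and 25 in knockout 2. Ifit3b, Oas1g, Oas3 and Rsad2 stayed below 0.5 FPKM in too many samples to be tested, with Rsad2, an antiviral enzyme of the radical SAM family, at 0.08, 0.34, 1.22 and 0.19 FPKM in control 1, control 2, knockout 1 and knockout 2.

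**Figure D1:**
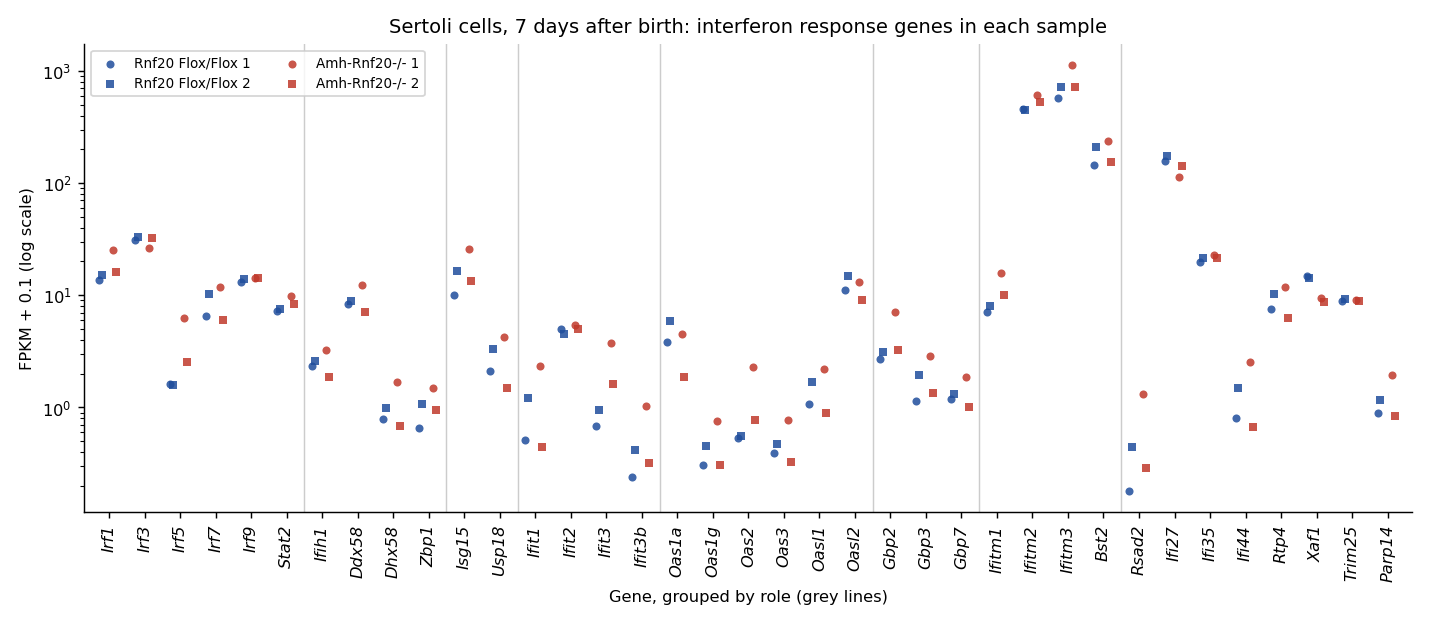
FPKM + 0.1 on a log axis for each of 37 interferon response genes in the 4 Sertoli cell samples at 7 days after birth (blue, Rnf20 Flox/Flox; red, Amh-Rnf20-/-; circles, sample 1; squares, sample 2), with grey lines between roles. Knockout 1 (red circles) lies above knockout 2 (red squares) for most genes, and Ifitm2, Ifitm3, Bst2 and Ifi27 stand above 100 FPKM.

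The first comparison asked whether these genes differ between Amh-Rnf20-/- and Rnf20 Flox/Flox Sertoli cells at 7 days after birth. Of 33 genes tested, 0 passed a log2 fold change beyond 1 with an adjusted p under 0.001 and 0 passed an adjusted p under 0.05 alone (edgeR quasi-likelihood test with Benjamini-Hochberg adjustment), and the share of all 12880 genes that passed was 0.0% by either rule. DESeq2 also called 0 of the 33 while calling 4.5% of all genes at an adjusted p under 0.05, and limma called 0 (0.0% of all genes). The paper reports genes past the first rule in Sertoli cells of this age, both higher and lower, and does not name its test. With edgeR no gene of the 12880 passed, so 0 of 33 is not particular to these genes. At an unadjusted p under 0.05, Irf5, Stat2, Ifit3, Oas2 and Ifitm2 were on the higher side, 5 of 33 compared with 8.52% of all genes, and Xaf1 was on the lower side, 1 of 33 compared with 6.99%. Of those 5, Oas2 reached the filter of 0.5 FPKM in the knockouts alone, so it could be tested only because it was higher there. The estimates lay above 0 for 28 genes, compared with 49.2% of all genes, and they had a median of 0.26 on the log2 scale and a range of -0.62 to 1.91. On TMM-scaled counts the knockouts lay wholly above the controls for 12 genes (24.8% of all genes) and wholly below for 2 (26.1%), and the groups overlapped for 19.

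The transcription factors of the response were expressed in all day 7 samples. Irf5, a regulator of inflammatory cytokine genes, was at 1.52 and 1.5 FPKM in controls and at 6.23 and 2.44 FPKM in knockouts (log2 fold change 1.56 ± 0.51, adjusted p = 0.286). Both knockouts exceeded both controls, and knockout 1 was by far the highest. Irf1, an activator that interferon gamma induces, was at 13.45 and 15.2 FPKM in controls and at 25.43 and 15.93 FPKM in knockouts (0.57 ± 0.25, adjusted p = 0.37). Stat2, a subunit of the complex that binds ISREs, was at 7.11 and 7.48 FPKM against 9.84 and 8.28 FPKM (0.35 ± 0.12, adjusted p = 0.305). Its groups did not overlap, and the difference was small. Irf9, the DNA-binding subunit of that complex, held 13.01, 14, 14.08 and 14.02 FPKM across control 1, control 2, knockout 1 and knockout 2 (0.08 ± 0.10, adjusted p = 0.737). Irf7, the amplifier of type I interferon production, held 6.46, 10.19, 11.64 and 5.87 FPKM in that order, so its highest and lowest values were both in knockouts (0.13 ± 0.41, adjusted p = 0.91). Irf3, the constitutive factor activated by nucleic acid sensing, was the most abundant of the 6, between 26.5 and 32.98 FPKM (-0.06 ± 0.12, adjusted p = 0.83).

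The sensors of cytosolic nucleic acid split the knockout samples in the same way. Ddx58, which encodes the RNA sensor RIG-I, held 8.21, 8.88, 12.26 and 6.98 FPKM in control 1, control 2, knockout 1 and knockout 2 (log2 fold change 0.21 ± 0.29, adjusted p = 0.765). Ifih1, which encodes the RNA sensor MDA5, held 2.23, 2.5, 3.12 and 1.78 FPKM in that order (0.06 ± 0.30, adjusted p = 0.941). Both controls lay between the 2 knockouts for either gene. Dhx58, the regulator LGP2, and Zbp1, a sensor of Z-form nucleic acid, were near 1 FPKM, with knockout 1 the highest at 1.6 and 1.4 FPKM. Their log2 fold changes were 0.51 ± 0.55 and 1.03 ± 0.71.

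Of the ISG15 and IFIT genes, those tested other than Ifit2 were more than 2-fold higher in knockout 1 than in knockout 2 on TMM-scaled counts. Isg15 was only just so (2.0005-fold), and Ifit1 had the widest such gap of the 33 genes (6.77-fold). Isg15, a ubiquitin-like modifier, was at 10.04 and 16.46 FPKM in controls and at 25.71 and 13.2 FPKM in knockouts (log2 fold change 0.60 ± 0.43, adjusted p = 0.557). Usp18, the protease that removes Isg15 and restrains the receptor, held 2.02, 3.21, 4.16 and 1.4 FPKM (0.13 ± 0.59, adjusted p = 0.935). Both genes were highest in knockout 1, and knockout 2 lay among or below the controls. Ifit3, an RNA-binding partner of Ifit1, was at 0.59 and 0.84 FPKM in controls and at 3.62 and 1.52 FPKM in knockouts, and had the largest estimate of the 33 genes (1.91 ± 0.54, adjusted p = 0.245). Ifit1, which binds viral RNA ends, was at 0.41 and 1.11 FPKM against 2.25 and 0.34 FPKM, so the lowest and the highest sample were both knockouts (0.81 ± 0.98, adjusted p = 0.74). Ifit2 stayed between 4.45 and 5.34 FPKM (0.18 ± 0.13), and Ifit3b, below the filter, held 0.14, 0.32, 0.93 and 0.22 FPKM.

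The 2′-5′ oligoadenylate synthetases make the second messenger that activates RNase L. Oas2 was at 0.43 and 0.46 FPKM in controls and at 2.21 and 0.67 FPKM in knockouts (log2 fold change 1.75 ± 0.63, adjusted p = 0.307), and reached the filter in the knockouts alone. Oas1a went the other way in its estimate, at 3.75 and 5.81 FPKM against 4.46 and 1.76 FPKM (-0.57 ± 0.51, adjusted p = 0.643), with overlapping groups. Oasl2 held 11.09, 14.78, 13.12 and 8.94 FPKM (-0.18 ± 0.25), and Oasl1 held 0.98, 1.57, 2.12 and 0.8 FPKM (0.21 ± 0.56). Both are OAS-like proteins, and for both knockout 2 was the lowest sample. Oas1g and Oas3 were at most 0.68 FPKM in any sample and were not tested.

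Among the GTPases and membrane proteins, knockout 1 was again on top. Gbp2, a guanylate-binding GTPase that attacks pathogen vacuoles, was at 2.61 and 3.01 FPKM in controls and at 6.94 and 3.17 FPKM in knockouts (log2 fold change 0.89 ± 0.42, adjusted p = 0.392). Gbp3 (0.49 ± 0.49) and Gbp7 (0.26 ± 0.36) had overlapping groups. Ifitm2, an interferon-induced transmembrane protein that blocks virus entry, was at 457.62 and 448.0 FPKM against 612.64 and 527.42 FPKM (0.38 ± 0.12, adjusted p = 0.284). Its relatives Ifitm1 (0.77 ± 0.34, adjusted p = 0.375) and Ifitm3 (0.55 ± 0.26, adjusted p = 0.394) also had their highest value in knockout 1, at 15.7 and 1121.41 FPKM. Bst2, the tetherin that holds budding virus at the cell surface, held 146.23, 208.75, 236.98 and 152.65 FPKM (0.18 ± 0.28, adjusted p = 0.802).

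Of the other effectors, 2 had knockouts wholly below controls. Xaf1, a pro-apoptotic protein, was at 14.69 and 14.03 FPKM in controls and at 9.33 and 8.68 FPKM in knockouts, with the lowest adjusted p of the 33 genes (log2 fold change -0.62 ± 0.13, adjusted p = 0.173). Here the replicates were close to each other in both groups. Ifi27, a small mitochondrial membrane protein, was at 157.9 and 174.92 FPKM against 114.18 and 141.24 FPKM (-0.33 ± 0.12, adjusted p = 0.325). Trim25, the ubiquitin ligase that acts on RIG-I signalling, stayed between 8.76 and 9.13 FPKM in all 4 samples (0.03 ± 0.08, adjusted p = 0.9, and -0.01 when scaled to total counts). Ifi35 (0.15 ± 0.11), Rtp4 (0.08 ± 0.37), Ifi44 (0.55 ± 0.77) and Parp14 (0.53 ± 0.48), a mono-ADP-ribosyltransferase, gave adjusted p-values between 0.574 and 0.941.

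The clearest regularity at day 7 lay within the knockout group. Knockout 1 was above knockout 2 for 31 of the 33 genes on TMM-scaled counts, compared with 49.5% of all genes, and more than 2-fold above it for 15 (3.68% of all genes), namely Irf5, Irf7, Dhx58, Zbp1, Isg15, Usp18, Ifit1, Ifit3, Oas1a, Oas2, Oasl1, Gbp2, Gbp3, Ifi44 and Parp14. It was the highest of all 4 samples for 28 genes (35.0% of all genes). In the controls, control 2 was above control 1 for 29 genes (48.8% of all genes) but more than 2-fold above for Zbp1 and Ifit1 alone (0.575% of all genes). The result of the comparison rested on these samples. Without knockout 1 the median log2 fold change was -0.19, with Ifitm2 higher (9.74% of all genes in that fit) and Oas1a and Xaf1 lower (11.7%) at an adjusted p under 0.05. Without knockout 2 it was 0.66, with 18 of 33 higher (21.0% of all genes in that fit) and 2 lower (18.8%) at that threshold, and with Irf5, Ifit3, Oas2 and Gbp2 past both thresholds as higher (2.63%). In both of these fits the lone knockout sample is assumed to vary like the controls. Oas2, counted in the fit without knockout 2, reached the filter in the knockouts alone. Markers of some other cell types moved with the same sample. The macrophage list, 5 of whose 12 genes passed the filter, summed to 33.0 and 37.0 FPKM in controls and to 64.2 and 34.7 FPKM in knockouts, and all 5 were higher in knockout 1 than in knockout 2 (median 0.86 on a log2 scale). Cd68 (6.14, 8.71, 14.24 and 7.08 FPKM in control 1, control 2, knockout 1 and knockout 2) and Cd14 (4.64, 3.91, 8.64 and 2.29 FPKM in that order) were more than 2-fold above. Of the 7 genes under the filter, Cx3cr1 was listed at 0.0 in both controls and Ptprc was at 0.05 to 0.19 FPKM. The T cell genes Cd3e, Cd3g, Cd4 and Cd8a were at or below 0.18 FPKM in every sample. The endothelial list summed to 36.0, 33.3, 50.2 and 35.8 FPKM. Knockout 1 was above knockout 2 for 6 of 6 fibroblast genes (median 0.46) and 4 of 4 Leydig cell genes (median 0.56), and for 2 of 8 spermatogonium genes (median -0.47) and 2 of 11 Sertoli cell genes (median -0.86). It was also above for 2 of 6 myoid genes (median -0.09) and for 0 of 1 tested T and NK cell gene (-0.19). The part of these markers in the result was not tested.

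In adult testis most of the interferon response genes were low in the controls. The 37 genes summed to 150, 160 and 231 FPKM in adult controls 1, 2 and 3 and to 2560, 1370 and 1430 FPKM in labelled knockouts 1, 2 and 3. Ifitm2, Ifitm3 and Ifi27 made up most of the labelled knockout sums, and Irf3, Ifitm2, Ifitm3, Ifi27 and Dhx58 were among the highest in controls. Of the tested genes, 11 had fewer than 50 counts in each control. Oas1g, Oas3 and Rsad2 were not tested. Oas3 was at 0.0, 0.03 and 0.03 FPKM in controls, with at most 3 counts in each, and at 0.06, 0.16 and 0.12 FPKM in labelled knockouts. Rsad2 was at 0.05, 0.02 and 0.1 FPKM against 0.43, 0.86 and 0.61 FPKM, and Oas1g at 0.15, 0.0 and 0.13 FPKM against 0.29, 0.5 and 0.56 FPKM. For all 3 the labelled knockouts lay above the controls at levels under 1 FPKM.

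**Figure D2:**
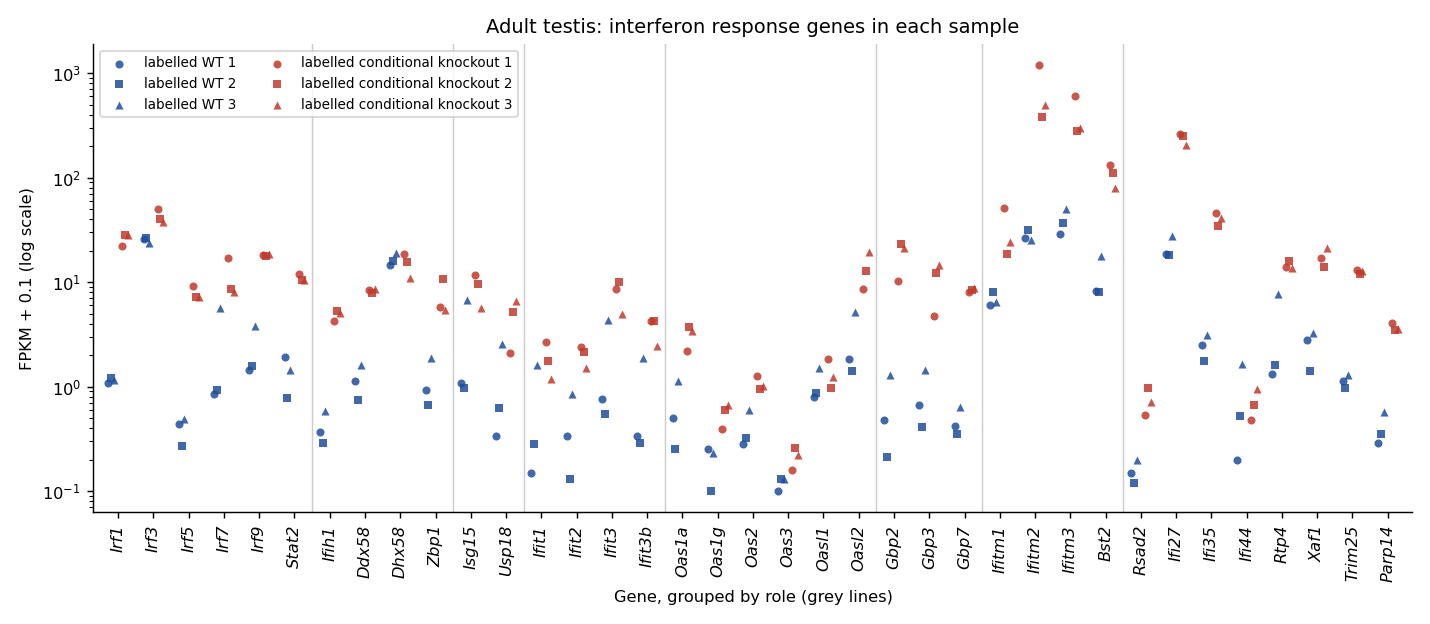
FPKM + 0.1 on a log axis for each of 37 interferon response genes in 6 adult testis samples (blue, labelled WT; red, labelled conditional knockout; a symbol for each sample number), with grey lines between roles. The labelled knockouts lie above the controls for Irf1, Gbp7 and Trim25 with a wide gap. Adult control 3 reaches into the range of the labelled knockouts for Isg15, Usp18 and Ifit1 and lies above it for Ifi44.

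The second comparison asked how the genes differ between adult testis labelled conditional knockout and adult testis labelled WT. Of 34 genes tested, 10 passed both thresholds, all higher in the labelled knockouts (Irf1, Irf5, Ifih1, Ddx58, Gbp7, Ifitm2, Ifi27, Ifi35, Trim25 and Parp14), compared with 23.0% of all 15919 genes passing as higher and 23.7% as lower. At an adjusted p under 0.05 alone, 20 rose (40.9% of all genes) and Dhx58 fell (40.6% of all genes fell), and 13 did not pass. Irf5, Ifih1 and Parp14 reached the filter of 0.5 FPKM in the labelled knockouts alone, so these 3 could be tested only because they were high there. Usp18, Ifit1, Ifit2, Ifit3, Ifit3b, Oas1a, Oas2, Gbp2, Gbp3, Gbp7 and Ifi44 had fewer than 3 controls at that level. They too were tested only through labelled knockout samples. Of the 10 called, Irf5, Ifih1, Parp14 and Gbp7 depend on the filter in this way. The share called higher, 10 of 34, is near the background, while no gene of the 34 passed both thresholds as lower with edgeR. The labelled knockouts lay wholly above the controls on TMM-scaled counts for 22 genes (42.4% of all genes) and wholly below for 1 (43.1%), and the groups overlapped for 11. The median log2 fold change was 1.73, against 0.01 for all genes, and 27 genes had an estimate above 1, compared with 35.3% of all genes. The values depend on the scaling in these samples. TMM factors of the controls were 0.710 to 0.761 and those of the labelled knockouts 1.27 to 1.42, and scaling to total counts moved the median of all genes to 0.87, so ratios of the FPKM values below are larger than the fitted folds. On total counts the median of the 34 genes was 2.56, with 15 past both thresholds as higher (36.7% of all genes, and 14.1% lower) and 27 higher at an adjusted p under 0.05 (54.1%). Median-ratio scaling moved the median of all genes to -0.19. By other tools, 18 of the 34 passed both thresholds with DESeq2 (64.5% of all genes in either direction), 17 of them as higher (28.9% of all genes) and Dhx58 as lower (35.5%), and 16 passed with limma on log2(FPKM + 0.1) (52.4%), all as higher. At an adjusted p under 0.05 alone, limma called 30 of the 34 as higher (53.5% of all genes) and 0 as lower (30.7%), the 10 more than with edgeR being Irf3, Irf7, Isg15, Usp18, Ifit2, Ifit3, Ifit3b, Oas1a, Oas2 and Rtp4.

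Among the transcription factors, Irf1 and Irf5 passed both thresholds. Irf1 was at 0.98, 1.1 and 1.06 FPKM in controls and at 22.0, 28.33 and 28.11 FPKM in labelled knockouts, 13.9-fold higher on TMM-scaled counts (log2 fold change 3.80 ± 0.16, adjusted p = 2.75e-05). The replicates of both groups were tight, and it had the lowest adjusted p of the 34 genes. Irf5 was at 0.34, 0.17 and 0.39 FPKM against 9.09, 7.13 and 7.09 FPKM, 14.6-fold higher (3.87 ± 0.36, adjusted p = 0.000152). Irf9 was at 1.33, 1.46 and 3.71 FPKM against 17.88, 17.77 and 18.47 FPKM (2.20 ± 0.40, adjusted p = 0.00253), and Stat2 at 1.82, 0.68 and 1.33 FPKM against 11.8, 10.27 and 10.45 FPKM (2.25 ± 0.34, adjusted p = 0.00105), so both of these subunits of the ISRE-binding complex rose at the adjusted p of 0.05. Irf7 was at 0.74, 0.82 and 5.49 FPKM against 16.77, 8.44 and 7.93 FPKM (1.41 ± 0.84, adjusted p = 0.161), and control 3 stood apart from the other controls. On total counts Irf7 passed an adjusted p of 0.05 (2.23, edgeR adjusted p = 0.0463). Irf3 was at 25.83, 26.14 and 23.56 FPKM against 49.4, 39.88 and 37.81 FPKM. Its direction depends on the scaling, with a log2 fold change of -0.16 ± 0.16 on TMM (adjusted p = 0.365) and 0.69 on total counts (adjusted p = 0.00339).

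The RNA sensors Ifih1 and Ddx58 rose. Ifih1 was at 0.27, 0.19 and 0.48 FPKM in controls and at 4.17, 5.15 and 4.99 FPKM in labelled knockouts (log2 fold change 3.11 ± 0.37, adjusted p = 0.000373). Ddx58 was at 1.02, 0.65 and 1.52 FPKM against 8.26, 7.71 and 8.48 FPKM (2.09 ± 0.29, adjusted p = 0.000784). Neither gene's groups overlapped. Zbp1 rose less evenly, from 0.83, 0.56 and 1.79 FPKM to 5.63, 10.5 and 5.28 FPKM (1.73 ± 0.56, adjusted p = 0.0272), and edgeR's call was lost without control 1 (adjusted p = 0.0824), control 2 (0.0937) or labelled knockout 2 (0.0879). The Zbp1 call was also lost with the replicate number as a block (edgeR adjusted p = 0.0686). Dhx58 was the exception of the sensors. Its FPKM overlapped, at 14.55, 15.64 and 18.98 in controls and at 18.44, 15.62 and 10.92 in labelled knockouts, and it fell on TMM-scaled counts (-0.97 ± 0.25, adjusted p = 0.0109) but not on total counts (-0.13, adjusted p = 0.604). With DESeq2 it passed both thresholds as lower (-1.16, adjusted p = 0.000738), and with limma at a pseudocount of 0.1 it did not pass (adjusted p = 0.556).

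None of the ISG15 system and IFIT genes, 6 in all, passed a threshold with edgeR on TMM scaling, although their estimates were all above 0. On total counts Ifit2 (adjusted p = 0.0305) and Ifit3b (0.0486) passed an adjusted p of 0.05 with edgeR. With limma at a pseudocount of 0.1 Isg15 (0.0471), Usp18 (0.0396), Ifit2 (0.0139), Ifit3 (0.0244) and Ifit3b (0.0193) passed and Ifit1 (0.0697) did not. Isg15 was at 0.97, 0.86 and 6.7 FPKM in controls and at 11.62, 9.42 and 5.54 FPKM in labelled knockouts (log2 fold change 0.80 ± 0.83, adjusted p = 0.399). Control 3 exceeded labelled knockout 3, and the other controls were below every labelled knockout. Usp18 was at 0.24, 0.52 and 2.43 FPKM against 1.99, 5.02 and 6.45 FPKM (1.20 ± 0.85, adjusted p = 0.229). Ifit1 was at 0.05, 0.18 and 1.5 FPKM against 2.59, 1.66 and 1.09 FPKM (0.81 ± 1.05, adjusted p = 0.497). Ifit3 was at 0.66, 0.45 and 4.19 FPKM against 8.4, 10 and 4.83 FPKM (1.28 ± 0.84, adjusted p = 0.202). Ifit3b, which shares sequence with Ifit3, was at 0.24, 0.19 and 1.79 FPKM against 4.14, 4.18 and 2.33 FPKM (1.47 ± 0.87, adjusted p = 0.16). Ifit2 was at 0.24, 0.03 and 0.75 FPKM against 2.3, 2.04 and 1.42 FPKM (1.73 ± 0.84, adjusted p = 0.0985). In each of these 6 genes control 3 was the highest control.

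Of the OAS genes, Oasl2 passed an adjusted p of 0.05 with edgeR on TMM scaling. Oasl2 was at 1.72, 1.32 and 5.03 FPKM in controls and at 8.39, 12.66 and 19.45 FPKM in labelled knockouts (log2 fold change 1.45 ± 0.55, adjusted p = 0.0471). That call was lost with median-ratio scaling (edgeR adjusted p = 0.0736) and without control 1 (0.137), control 2 (0.126), labelled knockout 2 (0.0911) or labelled knockout 3 (0.118). Oas1a was at 0.4, 0.15 and 1.02 FPKM against 2.1, 3.61 and 3.32 FPKM (1.60 ± 0.65, adjusted p = 0.0597), and Oas2 at 0.18, 0.22 and 0.5 FPKM against 1.15, 0.85 and 0.92 FPKM (0.89 ± 0.45, adjusted p = 0.111). Neither overlapped on FPKM, and both passed an adjusted p of 0.05 on total counts (edgeR adjusted p of 0.0154 and 0.0115) and with limma at a pseudocount of 0.1 (0.00697 and 0.00701). Oasl1 overlapped between groups, and its estimate was -0.32 ± 0.46 on TMM and 0.52 on total counts.

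The guanylate-binding proteins rose, and Gbp2 had the highest estimate of the 34 genes. Gbp2 was at 0.38, 0.11 and 1.2 FPKM in controls and at 10.1, 22.98 and 21.25 FPKM in labelled knockouts, 17.6-fold higher (log2 fold change 4.14 ± 0.75, adjusted p = 0.00243). Gbp7 was at 0.32, 0.25 and 0.54 FPKM against 7.87, 8.29 and 8.63 FPKM, 12.4-fold higher (3.63 ± 0.28, adjusted p = 8.34e-05). The replicates of Gbp7, which passed both thresholds, varied less than those of Gbp2, which passed an adjusted p of 0.05. Gbp3 was at 0.56, 0.31 and 1.33 FPKM against 4.63, 12.17 and 14.39 FPKM (2.98 ± 0.64, adjusted p = 0.00519). For none of the 3 did the groups overlap.

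The membrane restriction factors all rose. Ifitm2 was at 26.37, 31.37 and 25.21 FPKM in controls and at 1187.51, 379.71 and 493.68 FPKM in labelled knockouts, 13.9-fold higher (log2 fold change 3.79 ± 0.52, adjusted p = 0.000723). Ifitm3 was at 28.96, 36.4 and 50.38 FPKM against 601.83, 281.29 and 300.14 FPKM (2.51 ± 0.41, adjusted p = 0.00155). Ifitm1 was at 5.95, 7.85 and 6.33 FPKM against 51.29, 18.36 and 24.29 FPKM (1.62 ± 0.48, adjusted p = 0.0191), a call lost without control 1 (edgeR adjusted p = 0.0653) or control 3 (0.0637). The Ifitm1 call was also lost with the replicate number as a block (edgeR adjusted p = 0.0565). Labelled knockout 1 was more than 2-fold above the other labelled knockouts for these 3 genes and for Irf7, 4 of 34 compared with 3.29% of all genes. Cell type markers set the same sample apart. It was the highest labelled knockout for 6 of 6 myoid genes (median 0.75 above the mean of the other labelled knockouts on a log2 scale), 6 of 6 fibroblast genes (0.77) and 5 of 6 endothelial genes (0.77), and for 1 of 11 Sertoli cell genes (-2.80) and 0 of 8 spermatocyte genes (-6.19). Of all genes, 40.9% were highest in this sample among the labelled knockouts. The part of these markers in the values of labelled knockout 1 was not tested. Bst2 was at 8.09, 7.87 and 17.68 FPKM against 132.47, 110.48 and 80.2 FPKM (2.42 ± 0.40, adjusted p = 0.00157).

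Of the 7 other effectors tested, 4 passed both thresholds. Trim25 was at 1.03, 0.87 and 1.19 FPKM in controls and at 13.01, 11.76 and 12.68 FPKM in labelled knockouts (log2 fold change 2.75 ± 0.15, adjusted p = 3.54e-05). Ifi35, which binds Nmi, was at 2.41, 1.66 and 3.0 FPKM against 46.11, 34.56 and 41.21 FPKM (3.26 ± 0.26, adjusted p = 8.43e-05). Ifi27 was at 18.65, 17.97 and 27.69 FPKM against 262.13, 249.75 and 203.46 FPKM (2.61 ± 0.22, adjusted p = 0.000116). Parp14 was the fourth, at 0.19, 0.25 and 0.47 FPKM against 3.92, 3.34 and 3.46 FPKM (2.72 ± 0.35, adjusted p = 0.000559). Xaf1 rose at the adjusted p of 0.05, from 2.67, 1.31 and 3.12 FPKM to 16.97, 13.73 and 20.9 FPKM (1.62 ± 0.31, adjusted p = 0.00329). Rtp4, a receptor-transporting protein, was at 1.22, 1.52 and 7.54 FPKM against 13.97, 15.91 and 13.56 FPKM (1.45 ± 0.68, adjusted p = 0.0919). On total counts Rtp4 passed an adjusted p of 0.05 (2.29, edgeR adjusted p = 0.0218). Ifi44 was the sole effector with an estimate below 0 (-1.07 ± 0.89, adjusted p = 0.303), at 0.1, 0.42 and 1.54 FPKM in controls and 0.38, 0.57 and 0.85 FPKM in labelled knockouts.

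**Figure D3:**
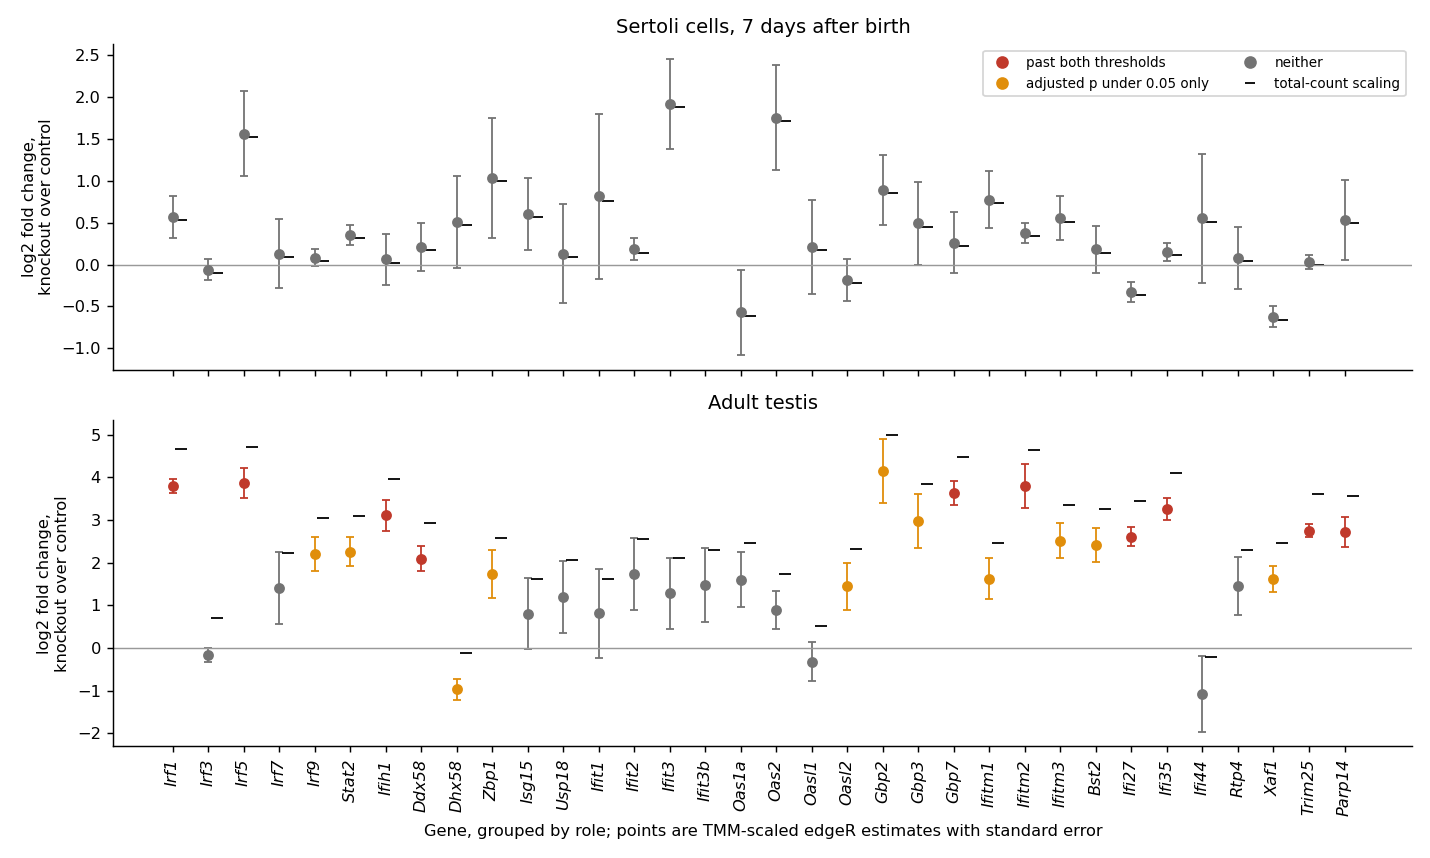
Log2 fold change of knockout over control (edgeR, TMM scaling) with its standard error for 33 interferon response genes at day 7 (top) and 34 in adult testis (bottom, labelled groups), coloured by the threshold passed; black dashes are the values scaled to total counts. At day 7 no gene passed, and in adult testis 10 passed both thresholds, with dashes above the points throughout.

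Adult control 3 carried more of these transcripts than the other adult controls. On TMM-scaled counts it was the highest control for 29 of 34 genes, compared with 32.7% of all genes, and more than 2-fold above both other controls for 18, compared with 1.04% of all genes. Those 18 were Irf7, Irf9, Ifih1, Zbp1, Isg15, Usp18, Ifit1, Ifit2, Ifit3, Ifit3b, Oas1a, Oas2, Oasl2, Gbp2, Gbp3, Bst2, Ifi44 and Rtp4. On a log2 scale control 3 exceeded the mean of the other controls by a median of 1.12 over the 34 genes. Irf1, Irf3, Irf5, Trim25 and Ifi27 were not among the 18, nor were Ifitm1, Ifitm2 and Ifitm3. The other interferon-induced genes moved with them in part, with control 3 the highest for 37 of 60 and more than 2-fold above for 12, including the immunity-related GTPases Igtp, Irgm1, Irgm2 and Iigp1. The receptors and JAK kinases did not, with control 3 the highest for 4 of 8 and more than 2-fold above for 0. The summed macrophage markers were 85.8, 96.8 and 85.4 FPKM in controls 1, 2 and 3, and control 3 was the highest for 3 of 12 (median -0.03 on a log2 scale), with Fcgr1 more than 2-fold above. Cd3e, 1 of 6 T and NK cell genes (median -0.19), and Tek, 1 of 6 endothelial genes (median 0.30), were also more than 2-fold above in control 3. Of the 18 genes, 14 have a promoter window, and 9 of those hold an ISRE-like match, as do 5 of the 13 windows of the other tested genes.

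Control 3 decided several calls of the adult comparison. Without it, 29 of 34 genes were higher (37.8% of all genes in that fit) and Dhx58 was lower (38.0%) at an adjusted p under 0.05, the median log2 fold change was 2.80, and Irf7, Isg15, Usp18, Ifit1, Ifit2, Ifit3, Ifit3b, Oas1a, Oas2 and Rtp4 were newly past that threshold. Usp18, Oas1a and Rtp4 were also newly past it without labelled knockout 1. The number past both thresholds, each time as higher, was 9 without control 3, where 17.2% of all genes passed in either direction. It was 3 without control 1 (19.7% of all genes), 5 without control 2 (16.9%), 17 without labelled knockout 1 (64.7%), 5 without labelled knockout 2 (21.3%) and 6 without labelled knockout 3 (29.4%). The highest count was in the fit with the highest share of all genes called. Irf1, Gbp7 and Trim25 passed both thresholds in each of these 6 fits. Gbp7, at 0.32, 0.25 and 0.54 FPKM in controls, reached the filter of 0.5 FPKM in 3 samples only with the labelled knockouts.

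**Figure D4:**
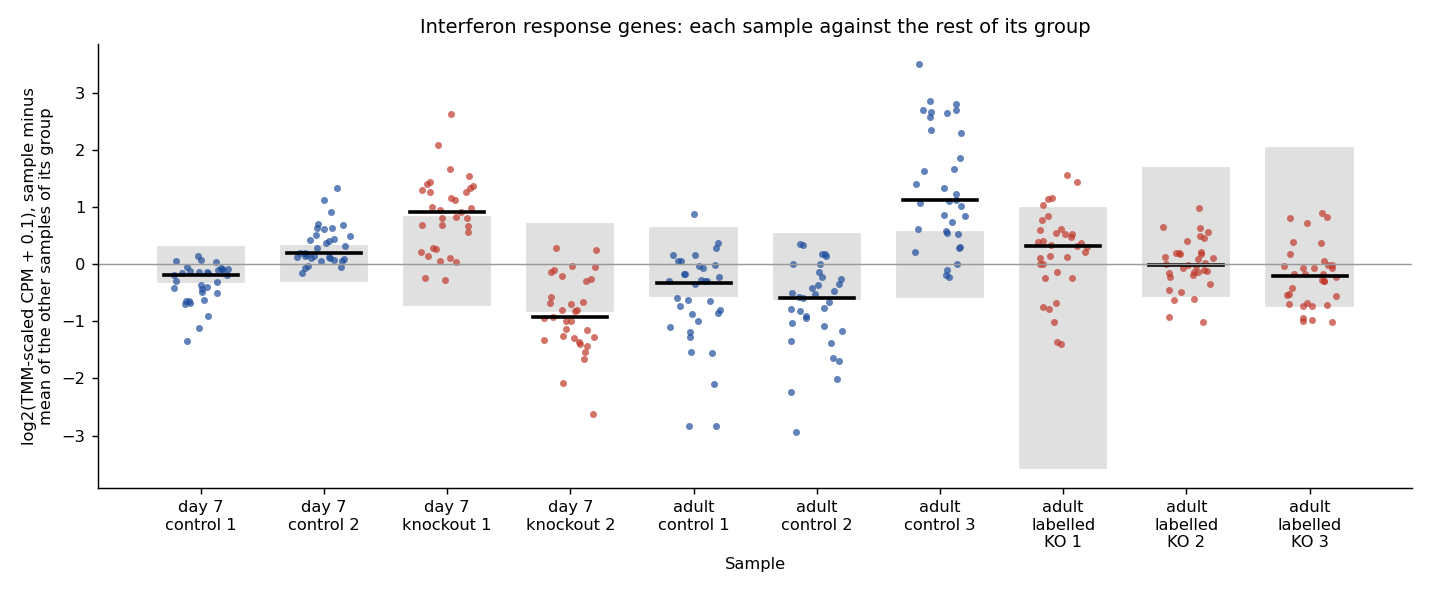
Log2 of TMM-scaled CPM (+ 0.1) of each sample minus the mean of the other samples of its group, with a point for each tested interferon response gene, a black bar at their median and a grey band from the 5th to the 95th percentile of all tested genes. Day 7 knockout 1 (median 0.92) and adult control 3 (median 1.12) lie above the bands of their groups for many of the genes.

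The genes upstream of and around the response were described from lists of the pathway. No interferon ligand of 17 has a row at day 7, and 8 have a row in adult testis, of which Ifnl3 alone was tested (0.02 ± 0.89, adjusted p = 0.986). At day 7, 0 genes of any list passed a threshold with edgeR (0.0% of all genes) and 0 of the 76 pathway genes tested with limma. DESeq2 called 4 of the 76 as higher at an adjusted p under 0.05 (4.5% of all genes in either direction), namely Tmem173 (0.91, adjusted p = 0.000183), Socs3 (0.74, adjusted p = 0.000381), Lgals9 (1.26, adjusted p = 4.87e-06) and Cxcl10 (3.15, adjusted p = 0.0291). Of these, Lgals9, a galectin, passed both thresholds (0.978% of all genes with DESeq2). DESeq2 also called 14 of 51 cell type markers at an adjusted p under 0.05, 5 of them past both thresholds. The 14 were 5 of 6 myoid, 5 of 6 fibroblast and 2 of 4 Leydig cell genes as higher and the Sertoli cell genes Sox9 (-1.14) and Wt1 (-0.49) as lower, and their part in the day 7 values was not tested. Ifnar1 was at 13.52 and 13.59 FPKM in day 7 controls and at 20.61 and 14.42 FPKM in knockouts, and Ifnar2, the chain needed for signalling, at 57.02 and 58.19 FPKM against 70.55 and 66.65 FPKM. Log2 fold changes at day 7 were 0.41 for Ifnar1, 0.32 for Ifnar2, 0.31 for Ifngr1, 0.38 for Ifngr2, -0.04 for Il10rb, -0.86 for Ifnlr1, 0.36 for Jak1, 0.50 for Jak2 and -0.17 for Tyk2.

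In adult testis the receptors and kinases rose with the response genes. Of 8 tested, 8 passed an adjusted p of 0.05 as higher (40.9% of all genes) and 6 passed both thresholds as higher (23.0% of all genes, with 23.7% lower, which is the background of the lists that follow), with a median of 2.48 (3.33 on total counts). Ifnar2 was at 7.54, 7.07 and 7.91 FPKM in controls and at 215.89, 145.96 and 132.04 FPKM in labelled knockouts (3.60 ± 0.26). The other log2 fold changes were 1.83 for Ifnar1, 2.41 for Ifngr1, 1.09 for Ifngr2, 2.64 for Il10rb, 2.76 for Jak1, 2.54 for Jak2 and 0.84 for Tyk2, and Ifnlr1, the lambda receptor, was not tested. Of 14 genes of nucleic acid sensing, 11 passed both thresholds as higher, led by the Toll-like receptors Tlr8 (4.41) and Tlr3 (3.85), Tmem173 (the adaptor STING, 3.56), Mavs (the adaptor of RIG-I and MDA5, 3.43) and Zc3hav1 (3.06), and Mb21d1, which encodes the DNA sensor cGAS, passed both as lower (-2.47). Of 6 other IRF family factors, Irf8 (4.66), Irf2bp2 (3.31) and Irf2bp1 (1.81) passed both as higher. Of 8 inhibitors of the pathway, 5 passed both as higher and 1 as lower, with Socs3 at 4.61, Ptpn6 at 3.15, Trex1 at 2.86, Samhd1 at 2.31 and Pias1 at -2.80. Of 60 other interferon-induced genes tested, 24 passed both as higher and 4 as lower, with a median of 2.48. Among those past both thresholds, Ifitm7 (-6.78) and Isg20 (-4.90) had the largest falls, and Ube2l6 (3.92), the conjugating enzyme for Isg15, Ifi47 (3.85) and Slfn2 (3.80) the largest rises.

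Markers of several somatic cell types rose in the same adult samples. The macrophage list rose for 12 of 12 genes past both thresholds (median 3.62), with sums of 85.4 to 96.8 FPKM in controls and 2120 to 3310 FPKM in labelled knockouts. Leydig cell markers rose for 7 of 7 (median 4.09), from sums of 4040 to 5640 FPKM to sums of 65000 to 89600 FPKM, and fibroblast markers for 5 of 6 past both thresholds (median 4.39). T and NK cell markers summed to 4.09 to 12.7 FPKM in controls and 16.3 to 26.7 FPKM in labelled knockouts, with 5 of 6 tested higher and 1 lower (-1.94) at an adjusted p of 0.05. Endothelial markers had a median of 3.07 and Sertoli cell markers one of 1.57. Spermatocyte markers had a median of -3.38, and spermatid markers of -11.07 with 8 of 8 lower at an adjusted p of 0.05. The medians of the macrophage, Leydig cell, fibroblast and endothelial lists were all larger than the median of 1.73 of the interferon response genes. Their part in the rise of these genes was not tested.

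**Figure D5:**
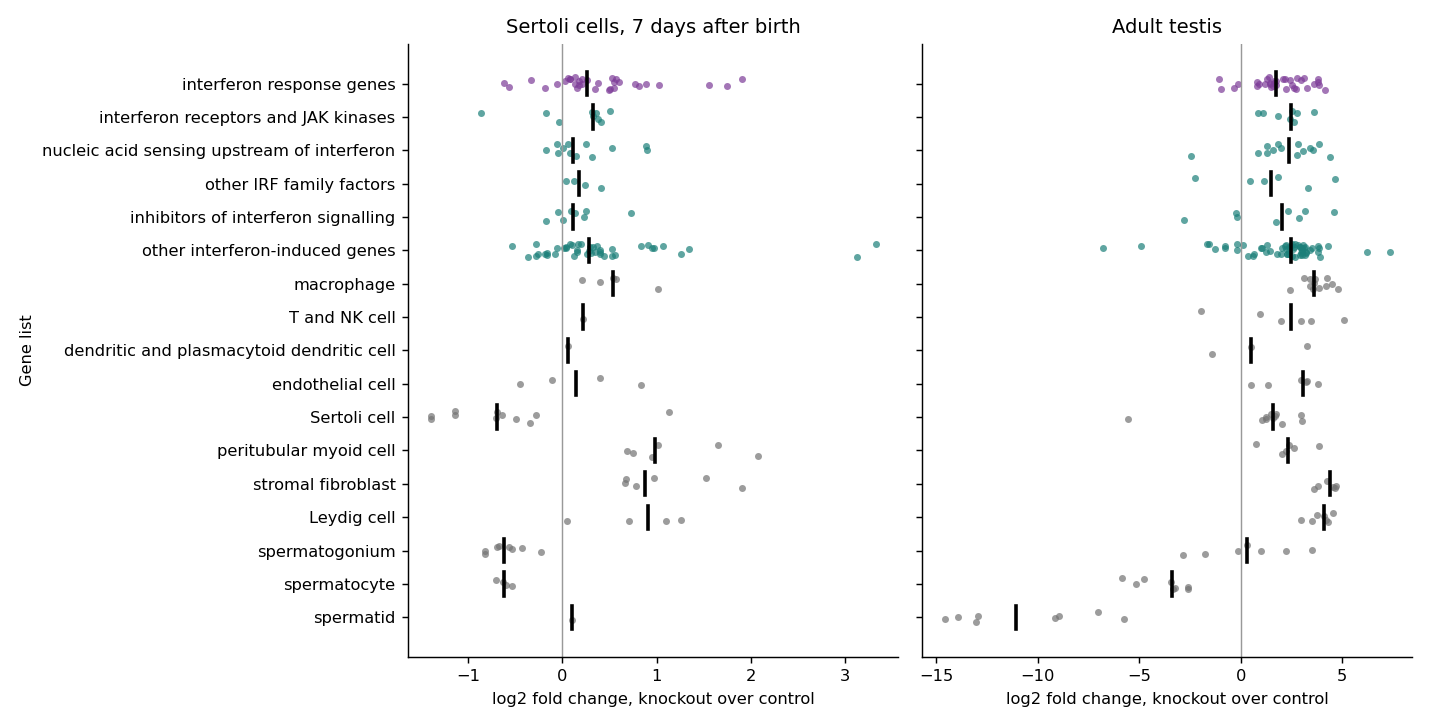
Log2 fold change of knockout over control (edgeR, TMM scaling) for each tested gene of the interferon response, of the pathway lists and of the cell type markers, at day 7 (left) and in adult testis (right, labelled groups, with its own scale); black bars are medians. In adult testis the interferon response genes (median 1.73) lie below the macrophage (3.62), Leydig cell (4.09) and fibroblast (4.39) markers.

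The same genes at both ages give a set of paired descriptions. Ifi27 and Xaf1 had knockouts wholly below controls at day 7 and labelled knockouts wholly above controls in adult testis. Of the 33 genes tested at both ages, 10 had knockouts wholly above controls at both (15.1% of all genes tested in both tables), namely Irf1, Irf5, Irf9, Stat2, Ifit2, Gbp2, Ifitm1, Ifitm2, Ifitm3 and Ifi35, and 0 had them wholly below at both. Irf5 and Gbp2 were among them, with log2 fold changes of 1.56 and 0.89 at day 7 and of 3.87 and 4.14 in adult testis. Some of the day 7 gaps were slight. Control 2 and knockout 2 were at 14.0 and 14.02 FPKM for Irf9, 21.23 and 21.36 for Ifi35, and 3.01 and 3.17 for Gbp2. Ifitm3 overlapped on FPKM at day 7, with 718.29 in control 2 and 716.23 in knockout 2. Trim25 had an estimate of 0.03 at day 7 and 2.75 in adult testis. The tables were processed separately and come from different material, so levels between the ages were not tested.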

How the data were processed

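The authors mapped reads with HISAT and Bowtie2 to GRCm38.p6, per the submitters' processing notes, and the paper's methods give RSEM for FPKM. The deposited tables hold estimated counts, which are not normalized, and FPKM values, which the authors scaled by gene length and library size; TPM columns were not used. How the adult table was made is not given in the sources used here beyond its column names, and 20 of its columns hold no value. Tool versions, read filters and strand are likewise not given.

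Counts were rounded to whole numbers (10.676% to 13.165% of adult and 11.147% to 11.641% of day 7 genes had a fractional count) and tested with edgeR's quasi-likelihood test, TMM scaling and Benjamini-Hochberg adjustment over all genes tested, separately in each table. The tests covered 12880 genes at day 7 and 15919 in adult testis, those that reached 0.5 FPKM in 2 day 7 samples or 3 adult samples. Calls used a log2 fold change beyond 1 with an adjusted p under 0.001, after the paper's thresholds, or an adjusted p under 0.05. Each SE was obtained from the log2 fold change and the F statistic of its test. Non-overlap was judged on TMM-scaled counts unless FPKM is named. Differences between replicates exceeded counting noise in every pair (chi-square per degree of freedom of 2.728 or more). The edgeR script was tested on simulated data.

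The members and lists were chosen with earlier results of these data known. The text names all 39 genes, Rnf20, the receptors and JAK kinases, and of each other pathway list up to 5 genes with the largest change among those past both thresholds. Mb21d1, past both thresholds as lower in adult testis, is named in addition to these. Other genes, such as Tmem173, Socs3, Lgals9 and Cxcl10 at day 7, the cell type markers Sox9, Wt1, Fcgr1, Tek, Cd68, Cd14, Cx3cr1, Ptprc, Cd3e, Cd3g, Cd4 and Cd8a and the GTPases of adult control 3, were named after their values were seen. Some results under this rule are not reported here. Markers were those of macrophages, T and NK cells, dendritic cells, endothelial cells, Sertoli cells, myoid cells, fibroblasts, Leydig cells and germ cells. The dendritic list had 1 of 3 tested genes higher and 1 lower in adult testis, and the spermatogonium list 2 higher and 2 lower of 7, at an adjusted p under 0.05. In adult testis 5 of 8 spermatocyte genes were lower and 5 of 6 myoid genes, 5 of 6 endothelial genes and 5 of 11 Sertoli cell genes higher, with 1 Sertoli cell gene lower.

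Alternatives were median-ratio and total-count scaling, DESeq2, limma on log2(FPKM + 0.1) and log2(FPKM + 1), no filter on low values, the replicate number as a block and each sample left out. Tools were R 4.3.3, edgeR 4.0.16, DESeq2 1.42.0, limma 3.58.1, Python 3.11.15 and pandas 2.3.3.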

Additional observations from a re-analysis of the deposited data

Results flagged for a closer look

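Ifi27 had every knockout sample below every control at day 7 (log2 fold change -0.33) and every labelled knockout above every control in adult testis (2.61), so the groups moved in opposite directions in the 2 tables. The difference was not tested, because the tables come from different material.

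Xaf1 showed the same contrast, with a log2 fold change of -0.62 at day 7 and 1.62 in adult testis, and its difference was not tested either. At day 7 neither gene passed an adjusted p of 0.05.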

How the results depend on the processing

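At day 7, 0 members passed both thresholds under every alternative that kept all 4 samples, with medians of 0.12 to 0.37, and samples left out in turn gave 0 to 4 members and medians of -0.19 to 0.66. In adult testis the 10 members became 18 with DESeq2 (64.5% of all genes called in either direction), 16 with limma at a pseudocount of 0.1 (52.4%) or 1 (55.3%) and 21 at an adjusted p under 0.05 at any fold change (81.5%), and 3 to 17 with samples left out; the median of 1.73 became 2.56 with total-count scaling, 2.79 with limma at a pseudocount of 0.1, and 1.6 to 2.8 with samples left out. The cause of these shifts was not tested.

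With the replicate number as a block, 0 adult members passed both thresholds (0.0% of all genes), 18 rose (38.1%) and 1 fell (38.6%) at an adjusted p under 0.05, and the median was 2.12; at day 7 the median was 0.20. Same-numbered samples correlated at 0.03575 (day 7) and between 0.01072 and 0.02474 (adult), and each adult sample correlated best with its own number. At day 7, with 2 samples per group, the correlations could differ in sign alone. Whether the numbers pair the samples cannot be decided from these values.

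Estimates that changed sign were, at day 7, Trim25 (-0.01 with total-count scaling and both limma fits), Ifih1 (-0.0005 with limma at 0.1), Usp18 (-0.07 and -0.02 with limma at 0.1 and 1) and Rtp4 (-0.03 and -0.02), and in adult testis Rnf20 (-0.08 with median-ratio scaling and DESeq2), Irf3 (0.69, 0.74 and 0.72 with total-count scaling and limma at 0.1 and 1), Oasl1 (0.52, 0.36 and 0.2) and Ifi44 (0.28 and 0.0049 with limma). Leaving out samples at day 7 gave ranges across 0 for Irf7 (-0.46 to 0.54), Ifih1 (-0.4 to 0.41), Usp18 (-0.86 to 0.72), Oasl1 (-0.73 to 0.77), Bst2 (-0.19 to 0.47), Rtp4 (-0.46 to 0.47), Oasl2 (-0.49 to 0.08), Irf3 (-0.2 to 0.05), Ddx58 (-0.26 to 0.56), Dhx58 (-0.4 to 1.07), Ifit1 (-1.14 to 1.69), Gbp3 (-0.21 to 0.96), Gbp7 (-0.29 to 0.66), Ifi44 (-0.88 to 1.26) and Parp14 (-0.27 to 1.03), and in adult testis for Oasl1 (-0.55 to 0.16), Ifi44 (-1.59 to 0.29) and Irf3 (-0.24 to 0.01). Counts were low, under 50 in every control, for 11 adult members, and how far this limits the precision of those genes was not tested.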

Other observations

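The members more than 2-fold above the rest of their group were compared between day 7 knockout 1 and adult control 3, which belong to different tables and opposite genotype labels. Of the 15 at day 7 and the 17 in adult testis among the 33 members tested in both tables, 11 were shared, 73.3% of the former and 64.7% of the latter (Irf7, Zbp1, Isg15, Usp18, Ifit1, Ifit3, Oas1a, Oas2, Gbp2, Gbp3 and Ifi44). Of all 12378 genes tested in both tables, 25 were more than 2-fold above in both samples (0.202%), which is 6.67% of the 375 at day 7 and 26.9% of the 93 in adult testis. Of the 11 members, 8 have a promoter window, 6 with an ISRE-like match. Among other interferon-induced genes, 10 of 43 were more than 2-fold above knockout 2 in day 7 knockout 1 (3.68% of all genes), including Cxcl10, a chemokine, at 0.34 and 1.52 FPKM in controls and 13.58 and 2.34 FPKM in knockouts (log2 fold change 3.13 ± 1.11, edgeR adjusted p = 0.306), and the proteasome subunits Psmb8 and Psmb9. The largest estimates of that list at day 7 were Ifitm5 (3.33), Cxcl10, Sp100 (1.34), Lgals9 (1.26) and Ifi27l2a (1.07), and none passed a threshold with edgeR. Lgals9, which DESeq2 called past both thresholds, was at 24.17 and 24.91 FPKM in controls and 66.21 and 47.85 FPKM in knockouts (edgeR adjusted p = 0.139).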
